A study of Rattus norvegicus with 24 samples.

Results

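The miR-135 family of the rat brain was examined in small RNA libraries from the paraventricular nucleus of the hypothalamus (PVN) and the central nucleus of the amygdala (CEA). It comprised the 4 mature miRNAs that were listed by name, rno-miR-135a-5p, rno-miR-135a-3p, rno-miR-135b-5p and rno-miR-135b-3p, of 1098 counted miRNAs (703 known in rat and 395 predicted), and all 4 were present in the table. They were selected from the contrast of the PVN with the CEA, in which they had higher levels in the PVN, so every PVN to CEA value below is a description and carries no test. The rule did not use the responses to surgery and to electroacupuncture, which were tested, although earlier results of these data were known when the members were chosen.

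There were 24 libraries, 3 for each of 4 groups in each nucleus, from male Sprague-Dawley rats bought at 7 weeks of age. NC rats were not operated on, HT rats had part of the liver removed under isoflurane, HT + EA rats also received electroacupuncture at the Zusanli and Sanyinjiao points before and right after surgery, and HT + SEA rats had needles placed at the same points without current. All groups were accustomed to the restraint device, and NC and HT rats were restrained for as long as the needled rats during the sessions. Tissue was collected the day after the last session. The total miRNA count of a library was 6584345 to 14828269 in the PVN and 9463321 to 14913564 in the CEA. The labels give a replicate number and no animal, so p-values measure the spread between these libraries. The libraries come from bulk tissue, in which a lower share of expressing cells and less miRNA per cell cannot be told apart.

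A miRNA is cut from a hairpin transcript, whose left arm yields the 5p and whose right arm yields the 3p strand, and a strand loaded into Argonaute represses mRNAs that pair with its seed, bases 2 to 8. The miR-135 5p strands are known as repressors of the serotonin transporter Slc6a4 and the serotonin receptor Htr1a, and the family has been linked to anxiety and to the response to antidepressants. The PVN holds the neurons that release corticotropin-releasing hormone and so drives the hypothalamic-pituitary-adrenal (HPA) axis, and the CEA is an output station for fear and stress.

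The mature strands are shown from 5′ to 3′ with the seed in capitals, since the family is defined by its seed. All 4 matched the RefSeq miRNA table (GRCr8), as did 637 of the 703 known miRNAs of the count table.
rno-miR-135a-5p: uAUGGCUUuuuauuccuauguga
rno-miR-135b-5p: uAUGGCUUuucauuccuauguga
rno-miR-135a-3p: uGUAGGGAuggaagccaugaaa
rno-miR-135b-3p: aUGUAGGGcuaaaagccauggg

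The 5p strands shared the seed AUGGCUU and differed at 1 of 23 bases, U11C from miR-135a-5p to miR-135b-5p, counted from the 5′ end. Since 1 base separates them and the treatment of reads that fit several miRNAs is not given in the sources used here, the division of reads between the 5p strands is uncertain. The 3p strands had the seeds GUAGGGA (miR-135a-3p) and UGUAGGG (miR-135b-3p), which are the same run of bases shifted by 1 position. With miR-135a-3p moved by that position against miR-135b-3p, 16 of 21 facing bases were the same, and the differences were A8C, G10A, G11A, A20G and A21G, with positions counted on miR-135a-3p. Outside the family, 0 of the 693 mature miRNAs of the RefSeq table carried any of these 3 seeds, so no further miRNA was added by seed.

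The hairpins are shown with both mature arms in capitals, because the ratio of the arms is compared further on. Mir135a lies on GRCr8 at chr7:28499166-28499265 (minus strand, 100 bases), within the span of the lncRNA LOC102548260. Mir135b lies at chr13:46191018-46191114 (plus strand, 97 bases), within the spans of the protein-coding genes Lemd1 and Blacat1. By RefSeq the 2 genes are thus on different chromosomes.
Mir135a: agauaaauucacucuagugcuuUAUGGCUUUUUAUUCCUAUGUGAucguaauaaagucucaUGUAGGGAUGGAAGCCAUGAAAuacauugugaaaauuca
Mir135b: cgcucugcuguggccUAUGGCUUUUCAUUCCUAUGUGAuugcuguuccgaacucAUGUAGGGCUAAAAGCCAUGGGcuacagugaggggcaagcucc

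The 4 strands differed widely in abundance, in the same order of medians in both nuclei. Levels are given as CPM, the count scaled to a library total of 1e6. In the PVN, miR-135a-5p was the most abundant, with a lowest, median and highest CPM of 1157, 1290 and 2381 over 12 libraries, followed by miR-135b-5p with 508, 544 and 781. The 3p strands were scarcer, at 54.6, 81.2 and 94.5 CPM for miR-135a-3p and at 6.20, 7.37 and 8.53 CPM for miR-135b-3p. No library of one strand reached the range of the next in the PVN. By mean level in the PVN, miR-135a-5p ranked 72 and miR-135b-5p ranked 116 of the 1098 miRNAs, while miR-135a-3p ranked 237.

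In the CEA all 4 were lower. The lowest, median and highest CPM over 12 libraries were 216, 312 and 360 for miR-135a-5p and 163, 250 and 288 for miR-135b-5p. These 2 ranges overlapped, whereas in the PVN they were far apart. MiR-135a-3p had 14.3, 19.1 and 25.5 CPM. MiR-135b-3p had 1.33, 2.61 and 4.03 CPM, which rest on only 18 to 54 counts per library, so its values in the CEA are the least precise of the family. The 95% Poisson interval of a count, which covers counting error only, had a half-width of 1.21% to 3.93% for miR-135a-5p, 2.12% to 4.22% for miR-135b-5p, 5.46% to 15.0% for miR-135a-3p and 19.0% to 49.4% for miR-135b-3p over all libraries. The ranks by mean level in the CEA were 164 for miR-135a-5p, 173 for miR-135b-5p and 312 for miR-135a-3p.

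**Figure D1:**
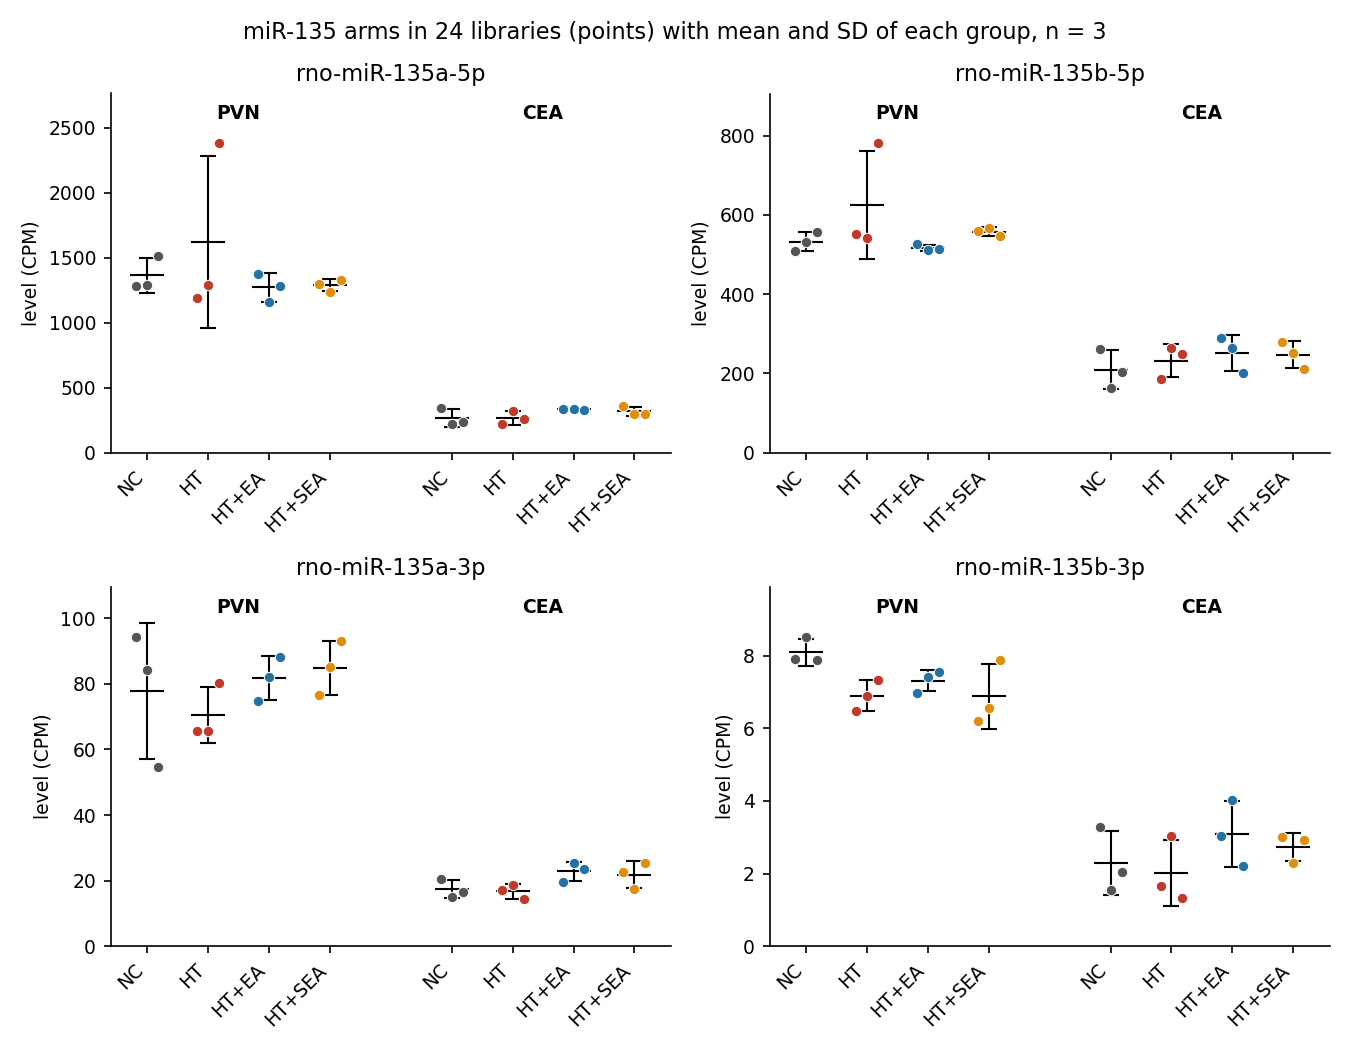
Level of each miR-135 strand in CPM (vertical axes, from 0) in the 24 libraries (points, coloured by treatment), with the mean and SD of each group of 3 (black). For each strand every PVN library lies above every CEA library, and 1 PVN HT library stands above the rest for both 5p strands, at 2381 and 781 CPM.

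The lowest PVN library was above the highest CEA library for every member, on the contrast that was used to choose them. The difference, PVN minus CEA in log2(CPM + 0.5) averaged over the 4 treatments, was 2.22 for miR-135a-5p (4.65-fold), 1.98 for miR-135a-3p (3.95-fold), 1.41 for miR-135b-3p (2.65-fold) and 1.26 for miR-135b-5p (2.39-fold). Among the 532 miRNAs with a mean of at least 10 counts these ranked 16, 20, 35 and 40, and the median of all 532 was 0.04. Both products of Mir135a thus had a larger difference than both products of Mir135b. By treatment, the difference of miR-135a-5p was 2.37 ± 0.22 (standard error, 3 libraries in each nucleus) in NC, 2.55 ± 0.36 in HT, 1.93 ± 0.07 in HT + EA and 2.02 ± 0.10 in HT + SEA. That of miR-135b-5p was 1.37 ± 0.20, 1.42 ± 0.23, 1.05 ± 0.16 and 1.18 ± 0.12 in the same order.

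**Figure D2:**
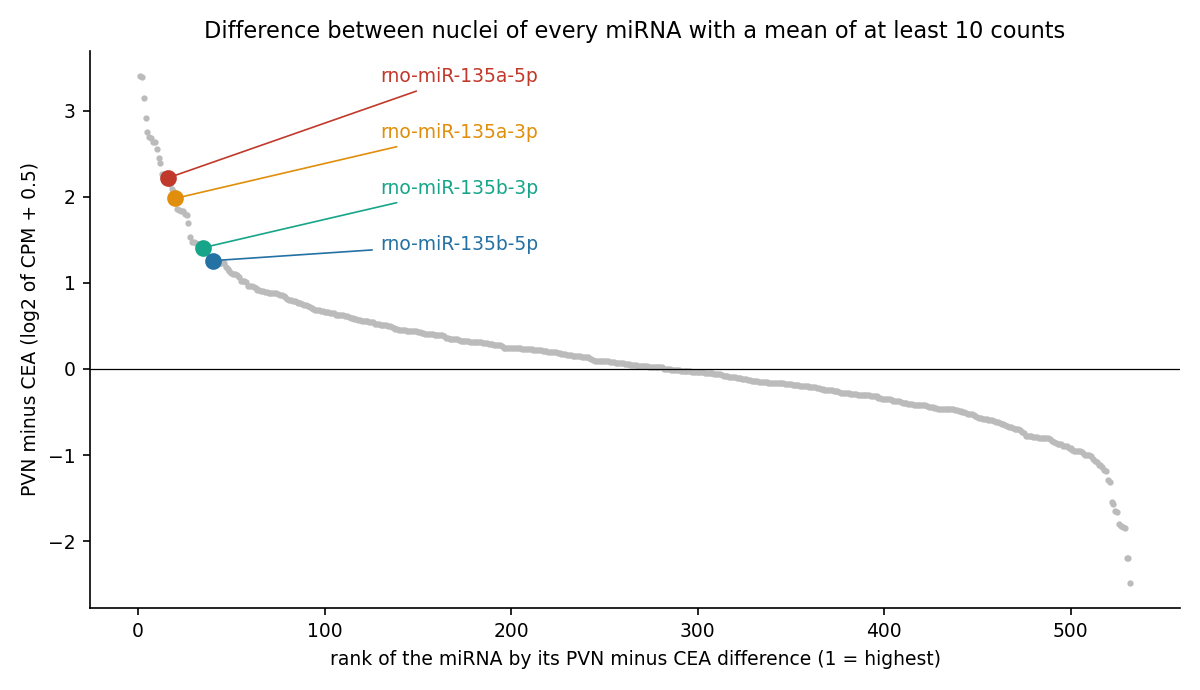
Difference between the nuclei, PVN minus CEA in log2(CPM + 0.5) averaged over the 4 treatments (vertical axis), for 532 miRNAs ordered by it (horizontal axis, rank). The 4 miR-135 strands (coloured) rank 16, 20, 35 and 40, between 1.26 and 2.22.

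The mix of the 2 genes differed between the nuclei as well, which is a further view of the contrast that chose the members and was not tested. The ratio of miR-135a-5p to miR-135b-5p was 2.17 to 3.05 in the PVN (median 2.43, n = 12) and 1.05 to 1.63 in the CEA (median 1.24, n = 12), with no overlap. MiR-135a-5p made up 65.2% to 73.3% of the family's counts in the PVN and 49.6% to 59.1% in the CEA. The sum of the 4 strands was 1757 to 3250 CPM in the PVN and 402 to 663 CPM in the CEA.

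The 5p strand outnumbered the 3p strand in every library. For Mir135a the ratio of 5p to 3p counts was 13.6 to 29.6 in the PVN (median 16.1) and 11.8 to 18.1 in the CEA (median 15.2). For Mir135b it was 62.4 to 107 in the PVN (median 73.0) and 65.5 to 186 in the CEA (median 94.0), where the highest value had 18 counts of miR-135b-3p. The lowest value for Mir135b, 62.4, was above the highest for Mir135a, 29.6, so the hairpins differed in this respect in both nuclei. The mean log2 ratio for Mir135a was 0.21 higher in the PVN than in the CEA, rank 32 of 111 hairpins with both arms counted, and the median over those hairpins was 0.04.

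The arm ratio of Mir135a stood apart in 2 PVN libraries. It was 27.8 in NC replicate 3 and 29.6 in HT replicate 3, and 13.6 to 19.6 in the other 10 PVN libraries. Relative to the PVN median, Mir135a ranked 6 of the 111 hairpins in each of these libraries, at 0.78 and 0.88 on the log2 scale, while the median over the hairpins was 0.06 and 0.09. In NC replicate 3 the 3p strand was the lowest of the PVN, at 54.6 CPM, and miR-135a-5p was 1515 CPM. In HT replicate 3 the 3p strand, at 80.4 CPM, was within the range of the other libraries, and the 5p strand was high. The ratio of the 5p strands was also highest in these libraries, at 2.72 and 3.05, against 2.17 to 2.62 in the other 10.

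**Figure D3:**
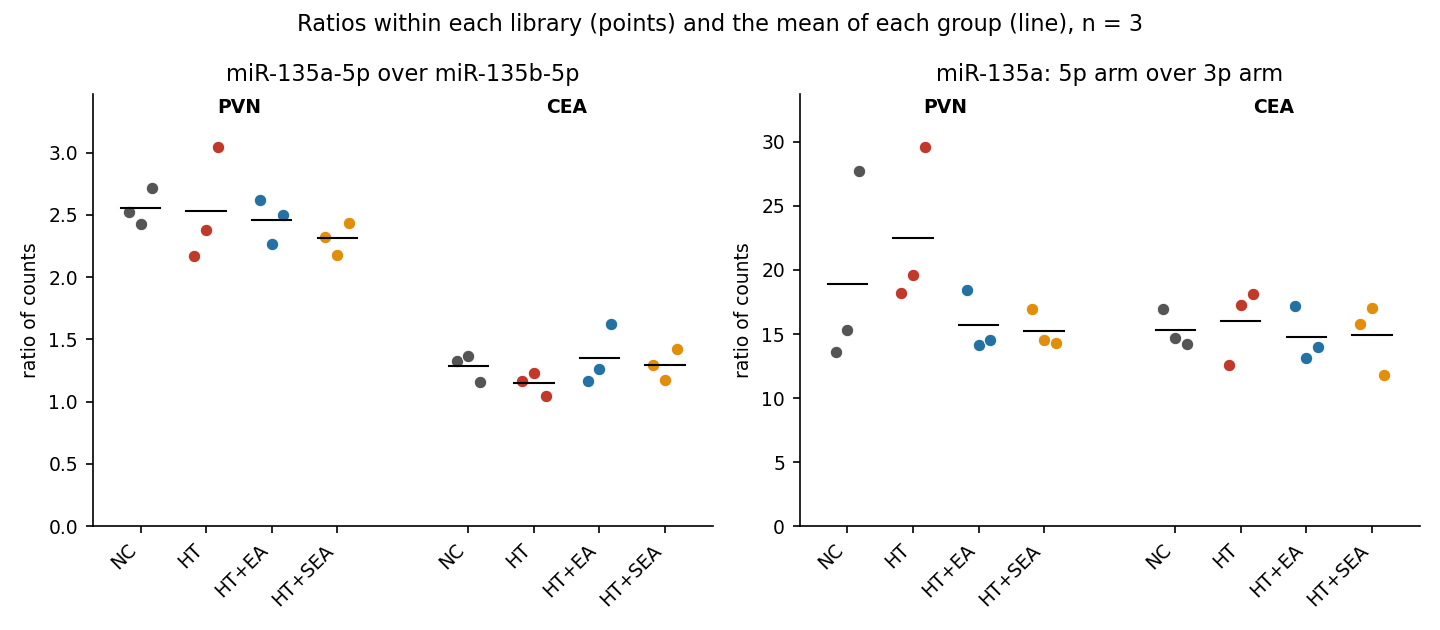
Ratio of miR-135a-5p to miR-135b-5p counts (left) and of miR-135a-5p to miR-135a-3p counts (right) in the 24 libraries (points), with the mean of each group of 3 (line). The left ratio is 2.17 to 3.05 in the PVN and 1.05 to 1.63 in the CEA, and on the right 2 PVN libraries, at 27.8 and 29.6, lie above all others.

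PVN HT replicate 3 weighs on every comparison that uses the PVN HT group. It held the highest of the 12 PVN values for 140 of 532 miRNAs (26.3%), and the next library, NC replicate 3, for 64. With CPM divided by edgeR's TMM scaling factor of each library (TMM-scaled CPM) these numbers were 116 and 78. Its miR-135a-5p was 1.85-fold and its miR-135b-5p 1.44-fold the median of the other 11 libraries, while its miR-135a-3p and miR-135b-3p were 0.98-fold and 0.99-fold. Its sum over 4 miRNAs typical of neurons was the highest of the 12 on plain CPM, at 116875 against 102997 to 115742 in the others, but not on TMM-scaled CPM, where it was 109831 and NC replicate 3 had 116356. Its sum over 5 miRNAs typical of ependyma and choroid plexus was 3106 CPM, within the range of the others (2970 to 4462 CPM). The part of these differences in the family's values was not tested, and the changes of the 5p strands that use the PVN HT group, and the calls of named miRNAs in PVN comparisons with HT, are given with and without it. For miRNAs outside the family, leaving it out was chosen after the data were seen.

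The first question was whether hepatectomy changed the family in the PVN. A member was called at an unadjusted p under 0.05 in edgeR's quasi-likelihood test, the threshold used in the study, with the Benjamini-Hochberg adjusted p over all tested miRNAs beside it. MiR-135a-5p was 1282, 1290 and 1515 CPM in NC and 1192, 1289 and 2381 CPM in HT. MiR-135b-5p was 508, 532 and 557 CPM in NC and 551, 542 and 781 CPM in HT. The HT groups contained the NC values or overlapped them, and only replicate 3 of HT was above all 3 NC libraries. The log2 fold changes were 0.20 (standard error 0.14) for miR-135a-5p and 0.19 (0.15) for miR-135b-5p.

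MiR-135a-3p was 94.5, 84.4 and 54.6 CPM in NC and 65.5, 65.8 and 80.4 CPM in HT, or -0.18 in log2 units (standard error 0.19). That value was -0.28 without HT replicate 3, -0.38 without NC replicate 3 and -0.043 without NC replicate 1, and none of these was called. MiR-135b-3p was 7.90, 8.53 and 7.88 CPM in NC and 6.48, 6.90 and 7.33 CPM in HT, with no overlap and a log2 fold change of -0.27 (0.27). Of the 4 members 0 were called in PVN HT against NC, where 10.9% of 986 miRNAs were called, and the smallest adjusted p was 0.748 (edgeR, Benjamini-Hochberg). Groups did not overlap for 12.8% of the same miRNAs. Without HT replicate 3 the value of miR-135a-5p was -0.17 in place of 0.20 and that of miR-135b-5p was 0.0058. Without HT replicate 1, which leaves replicate 3 a larger weight, miR-135a-5p was called at a log2 fold change of 0.36 (adjusted p = 0.345, edgeR).

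The second question was whether electroacupuncture changed the family after hepatectomy. In the PVN, miR-135a-5p was 1377, 1157 and 1280 CPM in HT + EA, which overlapped the HT group, and the log2 fold change of HT + EA against HT was -0.30 (standard error 0.15, adjusted p = 0.462, edgeR). MiR-135b-5p was 526, 510 and 513 CPM in HT + EA, below all 3 HT libraries, with a log2 fold change of -0.23 (0.12, adjusted p = 0.485, edgeR). Groups did not overlap for 15.7% of 985 miRNAs in that comparison.

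The 3p strands had values of the opposite sign. MiR-135a-3p was 74.8, 82.0 and 88.3 CPM in HT + EA, with a change of 0.25 in log2 units (standard error 0.14, adjusted p = 0.527, edgeR), and miR-135b-3p was 6.98, 7.42 and 7.55 CPM, or 0.12 (0.22). With 1 library left out these changes were 0.16 to 0.31 and 0.062 to 0.15. Thus 0 of 4 members were called, against 11.4% of the 985 miRNAs (55 higher and 57 lower).

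These values depended on single HT libraries. Without HT replicate 3, miR-135a-5p had a log2 fold change of 0.027 and miR-135b-5p of -0.091, and miR-135a-3p was called at 0.31 (adjusted p = 0.170, edgeR). Without HT replicate 1 or 2, where replicate 3 is 1 of 2 HT libraries, miR-135a-5p was called at -0.44 and -0.43 (adjusted p = 0.0170 and 0.0482, edgeR) and miR-135b-5p at -0.27 and -0.32 (adjusted p = 0.345 and 0.273). Both fits took a miRNA's spread from all miRNAs together (infinite prior degrees of freedom). The 2 HT libraries left were far apart for miR-135a-5p, so its p is too small there. Over all miRNAs these fits called 137 of 969 and 125 of 968. Without HT + EA replicate 1, miR-135a-5p was called at -0.36 (adjusted p = 0.253, edgeR). In this comparison same-numbered libraries deviated together (r of 0.14 to 0.32 over 532 miRNAs), and once the replicate number was fitted as a block, miR-135a-5p was called at -0.25 (adjusted p = 0.322, edgeR). That block did not bring in any of the other 3 members. With DESeq2's size factors in edgeR both 5p strands were called, at -0.34 and -0.27 (adjusted p = 0.426 and 0.382), as they were with library totals only, at -0.35 and -0.27 (adjusted p = 0.380 and 0.411).

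Needles without current were compared with HT in the same way. In PVN HT + SEA, miR-135a-5p was 1299, 1235 and 1331 CPM and miR-135b-5p was 560, 567 and 546 CPM. Against HT, the log2 fold change of miR-135a-5p was -0.31 (standard error 0.15, adjusted p = 0.585, edgeR), that of miR-135b-5p was -0.15 (0.13), that of miR-135a-3p was 0.28 (0.15, adjusted p = 0.602, edgeR) and that of miR-135b-3p was 0.0071 (0.22). As with HT + EA, which shares the same HT libraries, 0 of 4 were called, here against 8.30% of 1000 miRNAs. Without HT replicate 3, miR-135a-5p was 0.024, miR-135b-5p was -0.0020 and miR-135a-3p was called at 0.34 (adjusted p = 0.230, edgeR). Without HT replicate 1 or 2, miR-135a-5p was called at -0.46 and -0.48 (adjusted p = 0.0195 and 0.289, edgeR). The fit without replicate 1 had infinite prior degrees of freedom, so its p is too small, and the fit without replicate 2 had 19.6. MiR-135a-5p was also called with DESeq2's size factors in edgeR, at -0.31 (adjusted p = 0.560), and with library totals only, at -0.33 (adjusted p = 0.556).

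The comparison of HT + EA with HT + SEA sets needles with current against needles without and uses no HT library. In the PVN its log2 fold changes were -0.029 (standard error 0.089) for miR-135a-5p, -0.066 (0.11) for miR-135a-3p, -0.12 (0.092) for miR-135b-5p and 0.080 (0.19) for miR-135b-3p. The 3 libraries of miR-135b-5p in HT + EA, 510 to 526 CPM, were below the 3 in HT + SEA, 546 to 567 CPM. The groups did not overlap for 11.3% of 994 miRNAs, and miR-135b-5p was not called (adjusted p = 0.777, edgeR). Of the 4 members 0 were called, against 7.14% of the 994.

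The same comparisons were made in the CEA. MiR-135a-5p was 346, 222 and 235 CPM in NC, 216, 323 and 260 CPM in HT, 335, 333 and 328 CPM in HT + EA, and 360, 295 and 301 CPM in HT + SEA. On this scale the 3 HT + EA libraries lay above the 3 HT libraries. MiR-135a-3p also lay higher, at 19.5, 25.4 and 23.5 CPM in HT + EA against 17.2, 18.7 and 14.3 CPM in HT. Groups did not overlap for 9.36% of 1004 miRNAs in this comparison. On CPM divided by the TMM factors that edgeR computes (0.822 for HT replicate 1 and 0.976 to 1.05 for the other 5 libraries), both strands overlapped, with 263, 322 and 264 in HT against 332, 318 and 336 in HT + EA for miR-135a-5p and 20.9, 18.7 and 14.6 against 19.4, 24.2 and 24.1 for miR-135a-3p. The log2 fold changes of HT + EA against HT were 0.18 (standard error 0.17) for miR-135a-5p, 0.29 (0.24) for miR-135a-3p, -0.015 (0.18) for miR-135b-5p and 0.50 (0.39) for miR-135b-3p, and the smallest adjusted p was 0.897 (edgeR). With library totals only, the values of the Mir135a strands were 0.32 and 0.44. With 1 library left out that of miR-135a-3p was 0.14 to 0.41 and that of miR-135b-3p was 0.24 to 0.81.

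No member was called in any CEA comparison, with 0 of 4 in HT against NC (3.82% of 996 miRNAs called), 0 of 4 in HT + EA against HT (5.28% of 1004), 0 of 4 in HT + SEA against HT (4.70% of 999) and 0 of 4 in HT + EA against HT + SEA (2.24% of 1026). MiR-135b-5p in the CEA was 260, 163 and 204 CPM in NC, 185, 264 and 248 CPM in HT, 288, 264 and 202 CPM in HT + EA and 278, 252 and 212 CPM in HT + SEA, and all of these groups overlapped. MiR-135b-3p was 3.28, 1.54 and 2.05 CPM in NC, 1.65, 3.04 and 1.33 CPM in HT, 3.02, 4.03 and 2.21 CPM in HT + EA and 2.74 ± 0.39 CPM (SD, n = 3) in HT + SEA, with overlap in every comparison. For miR-135a-3p, NC was 20.4, 15.1 and 16.5 CPM and HT + SEA 22.8, 17.3 and 25.5 CPM. DESeq2 likewise called 0 of 4 in each of the 8 comparisons of PVN and CEA. Over both nuclei, the groups of a member did not overlap in 5 of 32 combinations of member and comparison, against 9.50% of the 7990 combinations over all miRNAs. On TMM-scaled CPM, a scale added after the data were seen, they did not overlap in 4 of 32, against 9.34%. There both CEA combinations overlapped, and miR-135b-3p in PVN HT + EA against HT no longer did.

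**Figure D4:**
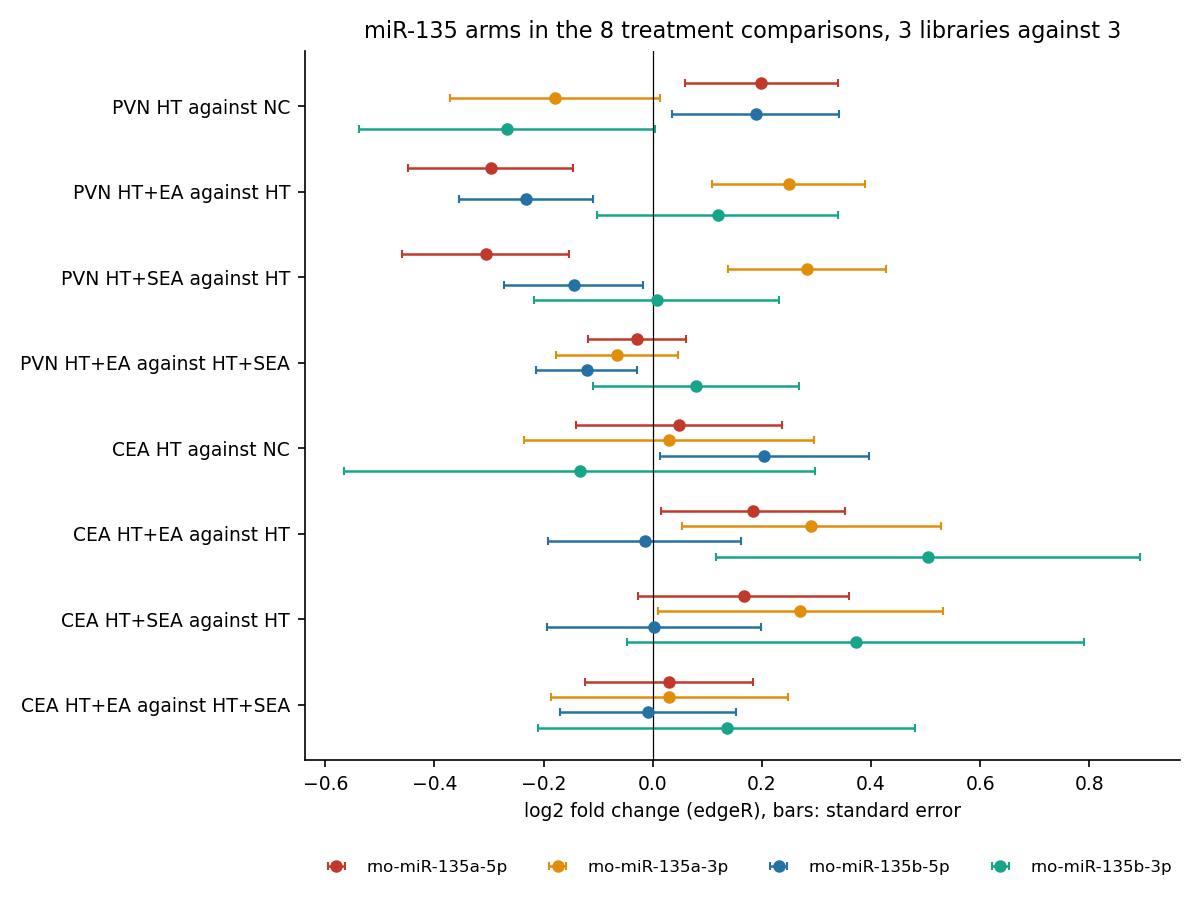
Log2 fold change (horizontal axis) with its standard error (bars) of each miR-135 strand (colours) in the 8 treatment comparisons, each of 3 libraries against 3, from edgeR. In the 2 PVN comparisons with HT as the reference the points of both 5p strands are below 0, between -0.31 and -0.15, and those of both 3p strands above 0, and the points near 0 for HT + EA against HT + SEA use no HT library.

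The difference between the nuclei in the response to a treatment was tested as an interaction over 12 libraries. The fit took PVN and CEA libraries as independent. The paper names 12 rats in 4 groups and states that the brain samples came from different animals of the same batch. Whether a PVN and a CEA library share a rat is thus not clear. For HT against NC, 0 of 4 members were called, against 4.98% of 1064 miRNAs. The difference, PVN minus CEA, was 0.070 for miR-135a-5p and -0.093 for miR-135b-5p, or -0.22 and -0.20 without PVN HT replicate 3. For HT + EA against HT, 1 of 4 was called, against 1.90% of 1051 miRNAs. This was miR-135a-5p, whose change in the PVN minus that in the CEA was -0.54 (standard error 0.25, adjusted p = 0.9998, edgeR). The members miR-135b-3p, miR-135b-5p and miR-135a-3p had -0.44 (0.41), -0.27 (0.21) and -0.098 (0.26), and -0.35, -0.039 and 0.047 without PVN HT replicate 3. With any 1 of the 12 libraries left out, miR-135b-3p ranged from -0.66 to -0.085 and miR-135b-5p from -0.39 to -0.039, so neither size was stable. Without PVN HT replicate 3 the value of miR-135a-5p was -0.13 (adjusted p = 0.9999, edgeR) and was not called, and DESeq2 called 0 of 4.

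Across the 24 libraries the 5p strands of the 2 genes moved together within groups. Taking each library's deviation from its group mean, Pearson's r between miR-135a-5p and miR-135b-5p was 0.80 (permutation p = 3.4e-04, adjusted over 6 pairs 0.0020) and Spearman's rho was 0.75 (adjusted permutation p = 0.0036). Without the 2 libraries farthest from the median, PVN HT replicate 3 and CEA NC replicate 1, and with the group means recomputed, r was 0.63. Over all libraries of a nucleus r was 0.96 in the PVN and 0.79 in the CEA (n = 12 each), and the PVN value was 0.56 over the 11 libraries other than HT replicate 3. The strands share 22 of 23 bases, and what the division of near-identical reads adds to this value was not tested. The 3p strands, whose sequences differ more, had r = 0.55 (adjusted permutation p = 0.0139) and rho = 0.71 (adjusted permutation p = 0.0036), with r = 0.67 without PVN NC replicate 3 and CEA HT + SEA replicate 2. Their r was 0.50 in the PVN, 0.43 there without HT replicate 3, and 0.71 in the CEA. The rank of the 3p pair's r of 0.55 among all miRNAs was not determined, so it cannot be called particular to the family.

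The correlation between the 2 strands of 1 hairpin did not pass the adjusted threshold for either gene. Between miR-135a-5p and miR-135a-3p r was 0.28 (adjusted permutation p = 0.247) and rho 0.27 (adjusted permutation p = 0.331), and r was -0.11 without PVN HT replicate 3 and CEA NC replicate 1. In the PVN r was 0.11, and -0.67 without HT replicate 3, while in the CEA it was 0.50. Between miR-135b-5p and miR-135b-3p r was 0.58 (adjusted permutation p = 0.112) and rho 0.44 (adjusted permutation p = 0.175), with r = 0.46 without the same 2 libraries. In the PVN r was 0.24, and -0.40 without HT replicate 3, while in the CEA it was 0.65. Of the remaining pairs, miR-135a-5p with miR-135b-3p had r = 0.52 (adjusted permutation p = 0.0409), rho = 0.57 (adjusted permutation p = 0.0315) and r = 0.52 without those libraries, with 0.31 in the PVN, -0.026 there without HT replicate 3, and 0.75 in the CEA. By its r over all libraries, miR-135b-3p ranked 53 of 531 miRNAs in likeness to miR-135a-5p, so the value is not particular to the family. MiR-135a-3p with miR-135b-5p had r = 0.10 (adjusted permutation p = 0.668), rho = 0.03 (adjusted permutation p = 0.922) and r = 0.26 without PVN NC replicate 3 and CEA HT + SEA replicate 2. In the PVN r was 0.13, and -0.89 over the 11 libraries without HT replicate 3, and in the CEA it was 0.093. Thus 4 of the 6 pairs had a negative r in the PVN once that library was left out. These values within a nucleus carry no test.

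The miRNAs whose levels were most like miR-135a-5p over all 24 libraries were also higher in the PVN. MiR-135b-5p was closest of 531 (r = 0.98), miR-135a-3p ranked 9 and miR-135b-3p ranked 29. Outside the family the 5 closest were miR-7b (r = 0.98), miR-532-5p (0.98), miR-7a-5p (0.97), miR-672-5p (0.97) and miR-134-5p (0.97). The points fall into 1 cluster for each nucleus, so these values describe the contrast. MiR-7a-5p and miR-7b, abundant in hypothalamic neurosecretory neurons, had PVN medians of 140626 and 12340 CPM and CEA medians of 33302 and 3569 CPM. Within the PVN r with miR-135a-5p was -0.44 for miR-7a-5p and 0.43 for miR-7b (n = 12).

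Once the group means were removed, the closest of 531 were miR-3547 (r = 0.82), miR-135b-5p (0.80), miR-154-5p (0.77), miR-134-5p (0.76), miR-149-5p (0.74) and miR-342-3p (0.70), and miR-135a-3p ranked 194. Part of this rests on PVN HT replicate 3, without which r was 0.84 for miR-3547, 0.64 for miR-154-5p, 0.88 for miR-134-5p, 0.54 for miR-149-5p and 0.22 for miR-342-3p. MiR-342-3p was 324 and 350 CPM in PVN HT replicates 1 and 2 and 873 CPM in replicate 3. MiR-3547 was 14.4, 13.0 and 33.9 CPM in the same 3 libraries. The libraries share depth and composition, so these values are descriptions.

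The dissections were checked against marker miRNAs, as sums over each list in CPM. The 5 hypothalamic neuroendocrine miRNAs (miR-7 and miR-375 strands) summed to 134966 to 170694 CPM in the PVN and 24888 to 54356 CPM in the CEA, and 4 of the 5 were higher in the PVN. The 5 miRNAs of ependyma and choroid plexus summed to 2970 to 4462 CPM in the PVN and 597 to 1910 CPM in the CEA. In the PVN most of each of these sums came from 1 miRNA. These were miR-7a-5p, with medians of 140626 CPM in the PVN and 33302 CPM in the CEA, and miR-34c-5p, with 2708 and 647 CPM. Of the other ependymal miRNAs, the PVN minus CEA difference in log2 units was 2.09 for miR-34b-5p and 0.39 for miR-204-5p. It was -0.15 for miR-449a-5p and 0.01 for miR-449c-5p, which had 0 to 2 counts. The 4 neuronal miRNAs (102997 to 116875 CPM in the PVN and 137892 to 162609 CPM in the CEA) and the 4 oligodendrocyte miRNAs (1973 to 3641 and 4333 to 8775 CPM) were lower in the PVN. The 4 vessel miRNAs (28018 to 33344 and 34889 to 40087 CPM) were lower too. Sums of 4 myeloid (79.9 to 189 and 57.8 to 134 CPM), 3 red cell (220 to 327 and 88.8 to 315 CPM) and 3 striated muscle miRNAs (19.7 to 109 and 21.3 to 51.4 CPM) overlapped between the nuclei. None of the lists had a member missing. Several lists thus moved with the contrast that the family follows, and their part in the family's difference was not tested.

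Some of these lists also moved with the treatments in the PVN. In HT against NC (10.9% of all tested miRNAs called), the sums over the ependymal, myeloid, red cell and striated muscle lists were lower in all 3 HT libraries than in all 3 NC libraries. They were 2970 to 3214 CPM in HT and 3755 to 4462 CPM in NC for ependyma and choroid plexus, 79.9 to 92.8 and 101 to 189 CPM for myeloid cells, 220 to 234 and 263 to 327 CPM for red cells, and 20.5 to 30.6 and 44.0 to 109 CPM for striated muscle. The ependymal difference rested on miR-34c-5p, without which the order was reversed, at 669 to 742 CPM in HT and 568 to 650 CPM in NC. The log2 fold changes of miR-204-5p, miR-449a-5p and miR-34b-5p were 0.18, 0.61 and -0.42, none called. The red cell sums overlapped without miR-451-5p (86.4 to 99.9 and 99.6 to 128 CPM) and the striated muscle sums without miR-206-3p (9.92 to 14.9 and 12.8 to 18.4 CPM). The myeloid difference rested on miR-223-3p, without which the sums overlapped, at 78.8 to 91.4 CPM in HT and 78.5 to 100.5 CPM in NC, and the log2 fold changes of miR-142-3p, miR-142-5p and miR-155-5p were -0.16, -0.0074 and 0.36, none called. The sums of the other 4 cell type lists overlapped. By members, 2 of 4 neuronal, 1 of 4 oligodendrocyte and 1 of 4 vessel miRNAs rose, while 1 of 4 myeloid, 1 of 5 ependymal, 1 of 3 red cell, 2 of 3 striated muscle and 1 of 5 hypothalamic neuroendocrine miRNAs fell.

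In PVN HT + EA against HT (11.4% called), 2 of 4 neuronal miRNAs fell, 1 of 4 oligodendrocyte miRNAs rose and 2 fell, 1 of 4 myeloid, 1 of 3 striated muscle and 1 of 5 neuroendocrine miRNAs rose, 1 of 3 red cell miRNAs rose and 1 fell, and 0 of 4 vessel and 0 of 4 tested ependymal miRNAs were called. In PVN HT + SEA against HT (8.30% called), 2 of 4 neuronal, 1 of 4 oligodendrocyte and 1 of 3 striated muscle miRNAs fell, 1 of 4 myeloid, 1 of 5 ependymal and 1 of 3 red cell miRNAs rose, and 0 of 4 vessel and 0 of 5 neuroendocrine miRNAs were called. In PVN HT + EA against HT + SEA (7.14% called), 1 of 4 myeloid, 1 of 4 vessel and 1 of 3 striated muscle miRNAs rose, 1 of 4 myeloid, 1 of 4 oligodendrocyte and 1 of 3 red cell miRNAs fell, and 0 of 4 neuronal, 0 of 5 ependymal and 0 of 5 neuroendocrine miRNAs were called. Without HT replicate 3 the calls of these lists in the comparisons with HT became 1 neuronal miRNA higher, 2 red cell miRNAs lower and 0 vessel miRNAs in HT against NC. In HT + EA against HT they became 2 neuroendocrine and 1 vessel miRNA higher and 1 striated muscle miRNA lower, and in HT + SEA against HT 1 neuronal miRNA higher and 1 lower and 0 oligodendrocyte miRNAs, while the other counts were equal. The part of these lists in the values of the family was not tested.

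The neuronal miRNAs called were the same in the 3 comparisons with HT, and they and the oligodendrocyte and myeloid miRNAs named here were chosen after their values were seen. MiR-128-3p was 7225, 9681 and 9556 CPM in NC, 13098, 13779 and 11731 CPM in HT, 9775, 9892 and 9155 CPM in HT + EA and 10859, 11577 and 7961 CPM in HT + SEA, with the HT libraries above the rest on plain CPM. On TMM-scaled CPM HT replicate 3, at 11024, was below HT + SEA replicate 2, at 11739, and HT remained above NC and HT + EA. Its log2 fold changes were 0.52 for HT against NC (adjusted p = 0.0014, edgeR), -0.39 for HT + EA against HT (adjusted p = 0.0543) and -0.33 for HT + SEA against HT (adjusted p = 0.343), and without HT replicate 3 they were 0.58, -0.49 and -0.43 and still called. MiR-138-5p was 348, 411 and 614 CPM in HT, with 0.42, -0.41 and -0.33 in the same comparisons (adjusted p = 0.158, 0.169 and 0.521, edgeR). With HT replicate 3 left out its values were 0.17, -0.19 and -0.11, and only the one for HT + EA was called. The oligodendrocyte miRNA miR-338-3p was 261, 287 and 451 CPM in HT, with 0.57, -0.43 and -0.38 (adjusted p = 0.0283, 0.169 and 0.410, edgeR). Without that library it had 0.30, -0.20 and -0.15, the last not called.

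The oligodendrocyte miRNAs did not move one way in HT + EA against HT. MiR-219a-5p was 82.5, 84.8 and 108 CPM in HT, 44.6, 40.5 and 54.8 CPM in HT + EA and 76.3, 93.8 and 55.0 CPM in HT + SEA, with HT + EA below HT. HT + EA and HT + SEA met at 54.8 and 55.0 CPM, and they overlapped on TMM-scaled CPM (53.5 and 53.0). It fell by 0.94 against HT (adjusted p = 4.2e-04, edgeR), or -0.85 and still called without HT replicate 3, and by 0.70 against HT + SEA (adjusted p = 7.4e-07). The fit against HT + SEA had infinite prior degrees of freedom, and the HT + SEA libraries were far apart, so the last p is too small. MiR-219a-2-3p rose by 0.29 against HT (adjusted p = 0.233, edgeR), or 0.23 and still called without that library, and miR-338-5p had 0.17 and was not called.

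MiR-223-3p, a miRNA of granulocytes and macrophages, was 22.3, 89.0 and 81.2 CPM in PVN NC, 1.02, 1.40 and 1.54 CPM in HT, 10.3, 8.98 and 11.9 CPM in HT + EA and 11.1, 1.58 and 1.49 CPM in HT + SEA. All HT libraries were below all libraries of NC and HT + EA. The log2 fold change was -5.62 for HT against NC (adjusted p = 2.0e-59, edgeR) and 1.82 for HT + SEA against HT (adjusted p = 0.168), and the miRNA also rose in HT + EA against HT (adjusted p = 9.2e-09). Leaving out HT replicate 3 gave -5.74, 1.90 and, for HT + EA, 3.08. Of the HT + SEA libraries, replicate 1 was far above the HT range and the others were in it or just above it. The fit of HT against NC had 478 prior degrees of freedom, so most of the spread came from all miRNAs together. In the CEA the miRNA was 1.27, 10.7 and 10.8 CPM in NC and 0.91, 0.91 and 0.89 CPM in HT. It was 1.24, 12.5 and 10.5 CPM in CEA HT + EA and 19.0, 1.38 and 1.74 CPM in CEA HT + SEA. Libraries of the same treatment thus differed widely there.

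Of 12 other miRNAs linked to serotonin signalling, which are relatives of miR-16 (a repressor of the serotonin transporter), miR-96 and miRNAs hosted by or near the serotonin receptor gene Htr2c, 4 were higher in the PVN, and their median difference was -0.43 on the log2 scale against 1.69 for the miR-135 strands. MiR-16-5p, given for its known role, had a median of 171 CPM in the PVN and 322 CPM in the CEA. In the PVN 0 of the 12 were called in HT against NC (10.9% of all tested miRNAs called), and 1 fell in each of HT + EA against HT (11.4%), HT + SEA against HT (8.30%) and HT + EA against HT + SEA (7.14%). These were chosen after their values were seen. MiR-497-5p fell in HT + EA against HT by 0.36 (adjusted p = 0.425, edgeR) and in HT + SEA against HT by 0.42 (adjusted p = 0.496, edgeR), and miR-1912-3p fell in HT + EA against HT + SEA by 0.56 (adjusted p = 0.478, edgeR) on the log2 scale. Without HT replicate 3 miR-497-5p had -0.36 and -0.43 and was called in both, and miR-322-5p was also called in HT + EA against HT, at 0.35 (adjusted p = 0.303, edgeR). In the CEA 2 of 12 fell in HT against NC (3.82% of all tested miRNAs called), 3 rose in HT + SEA against HT (4.70%), 1 rose in HT + EA against HT (5.28%) and 1 fell in HT + EA against HT + SEA (2.24%). In the interactions 0 of the 12 were called, against 4.98% for HT against NC and 1.90% for HT + EA against HT.

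Of 6 miRNAs linked to glucocorticoid signalling and stress, 1 rose and 1 fell in PVN HT against NC, where 10.9% of all tested miRNAs were called. MiR-34a-5p, which responds to p53 and has been linked to stress in the amygdala, rose by 0.49 in log2 units (adjusted p = 0.0806, edgeR), and miR-34c-5p fell by 0.56 (adjusted p = 0.0019, edgeR). These were 0.35 and -0.55 without HT replicate 3, and both were called. In PVN HT + EA against HT (11.4% called) 2 of the 6 fell, miR-34a-5p by 0.36 (adjusted p = 0.183, edgeR), or -0.27 and still called without HT replicate 3, and miR-18a-5p. In PVN HT + SEA against HT (8.30% called) 1 rose, miR-34c-5p by 0.27 (adjusted p = 0.410, edgeR), or 0.22 and called without that library, and miR-18a-5p fell. In PVN HT + EA against HT + SEA (7.14% called) 1 fell, miR-34a-5p by 0.21 (adjusted p = 0.508, edgeR). These too were named after their values were seen, and miR-34c-5p is also among the ependymal markers above.

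MiR-18a-5p, a repressor of the glucocorticoid receptor, was 1.59, 1.40 and 5.70 CPM in PVN HT, on 14, 13 and 63 counts, 1.56, 1.48 and 1.35 CPM in HT + EA, and 1.07, 1.44 and 1.04 CPM in HT + SEA. Only HT replicate 3 stood above the rest. Its log2 fold changes, -0.95 for HT + EA against HT (adjusted p = 0.330, edgeR) and -1.27 for HT + SEA against HT (adjusted p = 0.319, edgeR), were -0.042 and -0.36 without that library and were then not called. Without it, 2 further miRNAs of the list were called, miR-132-3p in HT against NC at -0.28 (adjusted p = 0.459, edgeR) and miR-124-3p in HT + SEA against HT at 0.23 (adjusted p = 0.402, edgeR).

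In the CEA, 1 of the 6 rose and 1 fell in HT against NC (3.82% of all tested miRNAs called), 1 fell in HT + EA against HT (5.28%), 1 rose and 2 fell in HT + SEA against HT (4.70%), and 0 were called in HT + EA against HT + SEA (2.24%). All of those called are given here, although no member was called in the CEA. MiR-34c-5p fell by 0.52 in HT against NC (adjusted p = 0.391, edgeR) and rose by 0.88 in HT + SEA against HT (adjusted p = 0.291). MiR-132-3p, a miRNA induced by neuronal activity, rose by 0.39 in HT against NC (adjusted p = 0.988, edgeR), and fell by 0.39 in HT + EA against HT (adjusted p = 0.897) and by 0.57 in HT + SEA against HT (adjusted p = 0.529). MiR-212-3p, from the same cluster as miR-132, fell by 0.59 in HT + SEA against HT (adjusted p = 0.529, edgeR). In the HT interaction 1 of the 6 was higher and 1 lower (4.98% called), and in the HT + EA interaction 0 were called (1.90%). Without PVN HT replicate 3 the HT interaction had 0 higher and 2 lower.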

How the data were processed

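Small RNA from the PVN and CEA was sequenced in 24 libraries. The deposited values are unnormalized counts of reads for each miRNA. Per the paper, libraries were made with a NEBNext small RNA kit and cleaned reads were mapped to the rat genome mRatBN7.2 with HISAT2 and counted with featureCounts. The submitters' processing notes name the same tools with the human builds GRCh38 and hg38, although the miRNA names are those of rat. The paper describes this for all its library types together, and a separate procedure for miRNA reads, or for reads fitting several miRNAs, is not given in the sources used here. A further 24 columns of per-library values were not used.

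Titles gave the nucleus and treatment of every sample. CPM are counts over the library's total miRNA count. For each treatment comparison, the 6 libraries concerned entered edgeR 4.0.16 (R 4.3.3 and limma 3.58.1), scaled by TMM and tested by quasi-likelihood (glmQLFit, glmQLFTest), and miRNAs without any count in those libraries were dropped. Interactions were fitted on 12 libraries. Calls are at an unadjusted p under 0.05, as in the study, with Benjamini-Hochberg adjustment over all miRNAs tested. A standard error is the log2 fold change over the square root of F. Some fits took nearly all of a miRNA's spread from all miRNAs together (infinite prior degrees of freedom), and there the p of a miRNA with a wide spread of its own is too small. In the main setting these were PVN HT + EA against HT + SEA and CEA HT against NC, and PVN HT against NC had 478. Many fits with 1 library left out were also of this kind. The scripts were tested on simulated counts. Correlations of deviations from group means used 100000 two-sided permutations within groups. These take the groups as independent, although same-numbered libraries deviated together in PVN HT + EA against HT and CEA HT against NC. Levels between nuclei used log2(CPM + 0.5). Arm ratios used 111 hairpins with a mean of at least 50 counts in each arm. Python 3.11.15, numpy 2.4.6, pandas 2.3.3, scipy 1.17.1 and matplotlib 3.10.9 were used, and sequences are from RefSeq (GRCr8).

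The alternatives were DESeq2 1.42.0, 2 other scalings, filterByExpr, a robust spread, a fit of all 24 libraries, a block for the replicate number and leaving out each library. For the listed miRNAs outside the family, leaving out PVN HT replicate 3 was added once the data had been seen, as were TMM-scaled CPM for levels and the overlap of groups, list sums without 1 of their miRNAs, and group means recomputed without the libraries left out of a correlation. Replicate numbers recur in all groups. Same-numbered libraries deviated together, with every r over 0.1, in PVN HT + EA against HT (0.14 to 0.32) and in CEA HT against NC (0.21 to 0.42), which is how the pairing there was judged, and not in the other 6 comparisons. MiRNAs named outside the family are the 5 most correlated with miR-135a-5p by level and by deviation from the group means, those sharing a seed with a member, and listed miRNAs called in a comparison in which a member is called. Other miRNAs named were chosen after their values were seen, apart from miR-16-5p. The members, lists and tests were chosen with earlier results of these data known.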

Additional observations from a re-analysis of the deposited data

Results flagged for a closer look

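One result stood out by a test of the difference between the nuclei. The change of miR-135a-5p in HT + EA against HT was -0.30 in the PVN and 0.18 in the CEA on the log2 scale, and the difference was -0.54 (standard error 0.25, adjusted p = 0.9998, edgeR's quasi-likelihood test). It was -0.13 without PVN HT replicate 3, whose miR-135a-5p of 2381 CPM was the highest of the 24 libraries. The difference was called in 4 of 7 other settings and in 4 of 12 fits with 1 library left out. In the main fit 1.90% of 1051 miRNAs were called.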

How the results depend on the processing

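The PVN to CEA difference of every member moved by less than 1 SD under a pseudocount of 1, TMM-scaled CPM and each library left out. In the 8 treatment comparisons, other settings called a member in 7 of 224 fits and leaving out 1 library did so in 10 of 192. Over all miRNAs, other settings called from 7 of 996 (CEA HT against NC, DESeq2) to 81 of 525 (PVN HT + EA against HT, filterByExpr). With 1 library left out the calls ran from 15 of 1008 (CEA HT + EA against HT + SEA) to 137 of 969 (PVN HT + EA against HT). For PVN HT + EA against HT, 2 members were called with DESeq2 size factors and 2 with library totals only (both 5p strands, lower), 1 with the replicate block, and 0 with the other settings. Over all miRNAs these 3 settings called 106, 113 and 127 of 985. For PVN HT + SEA against HT, 1 member was called with DESeq2 size factors and 1 with library totals only, against 85 and 84 of 1000 miRNAs. The block changed no other call, and in the 6 comparisons whose numbers did not pair libraries, between 0 and 1 of 3 numbers correlated best with their own. With 1 library left out, the number called was 0 to 1 for PVN HT against NC, 0 to 2 for PVN HT + EA against HT, 0 to 1 for PVN HT + SEA against HT and 0 to 1 for the HT + EA interaction. Over all miRNAs, in the same order, these fits called 80 of 958 to 108 of 970, 83 of 966 to 137 of 969, 25 of 976 to 94 of 987 and 14 to 50 of 1048. Of the members, that interaction gave 0 calls with DESeq2, 0 with DESeq2 size factors and 0 with filterByExpr. It also gave 0 without PVN HT replicate 3, CEA HT replicate 3 or any 1 of the 6 HT + EA libraries.

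Signs turned for values close to 0, and the cause was not tested. For miR-135b-3p in PVN HT + SEA against HT (0.0071) the values were -0.0033 with DESeq2, -0.0032 with its size factors, -0.0071 with library totals and -0.023 with filterByExpr. With library totals, CEA HT against NC was -0.0068 for miR-135a-5p and -0.049 for miR-135a-3p. MiR-135b-5p in CEA HT + EA against HT was 0.11 with library totals and 0.011 with all libraries in the fit. In CEA HT + SEA against HT it was -0.031 with DESeq2, -0.031 with its size factors, -0.018 with filterByExpr and -0.0050 with the replicate block. In CEA HT + EA against HT + SEA it was 0.024 with library totals, 0.016 with filterByExpr and 0.0082 with all libraries. In the HT interaction it was 0.078 with library totals.

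With 1 library left out, miR-135a-5p ranged from -0.17 to 0.36 in PVN HT against NC, from -0.44 to 0.027 in PVN HT + EA against HT, from -0.48 to 0.024 in PVN HT + SEA against HT and from -0.082 to 0.036 in PVN HT + EA against HT + SEA. In the CEA it ranged from -0.051 to 0.30 for HT against NC and from -0.014 to 0.12 for HT + EA against HT + SEA, and in the HT interaction from -0.22 to 0.30. MiR-135a-3p ranged from -0.15 to 0.017 (PVN HT + EA against HT + SEA), from -0.098 to 0.22 (CEA HT against NC), from -0.087 to 0.15 (CEA HT + EA against HT + SEA) and from -0.24 to 0.14 (HT + EA interaction). MiR-135b-5p ranged from -0.15 to 0.13 (CEA HT + EA against HT), from -0.098 to 0.092 (CEA HT + SEA against HT), from -0.12 to 0.12 (CEA HT + EA against HT + SEA) and from -0.24 to 0.11 (HT interaction). MiR-135b-3p ranged from -0.093 to 0.064 (PVN HT + SEA against HT), from -0.0024 to 0.20 (PVN HT + EA against HT + SEA), from -0.43 to 0.22 (CEA HT against NC), from -0.083 to 0.32 (CEA HT + EA against HT + SEA) and from -0.50 to 0.19 (HT interaction). The 18 to 54 counts of miR-135b-3p per CEA library limit its precision. Without the 2 farthest libraries the correlation of miR-135a-5p with miR-135a-3p was -0.11. Within the PVN and without HT replicate 3, r turned to -0.67 for that pair, -0.026 for miR-135a-5p with miR-135b-3p, -0.89 for miR-135a-3p with miR-135b-5p and -0.40 for miR-135b-5p with miR-135b-3p.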
